A study of Mus musculus with 36 samples.

Results

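The immunity-related GTPases (IRG proteins) are interferon-inducible GTP-binding proteins of mouse cells, and 6 of their genes were followed here: Irgm1, Irgm2, Igtp, Iigp1, Ifi47 and Gm4951. Every probe set of the array whose annotation gave one of these symbols was taken, which found 7 probe sets of the 45101 on the array, 2 for Iigp1 and 1 for each other gene. All 7 probe sets passed the filter on low values, a log2 value above 4 in at least 3 arrays, and the 6 genes are among the 9549 genes tested. A gene that is high only under interferon passes this filter, so passing it says nothing apart from the response.

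NIH-3T3 is an established mouse fibroblast line that was derived from embryos. In these cells, RNA made during a short window was labelled with the nucleoside 4-thiouridine (4sU) and measured on Affymetrix arrays as newly transcribed RNA. Fresh medium carried IFN gamma at 100 U/ml, IFN alpha at 100 U/ml or neither (mock), and all 36 arrays, mock arrays included, are from cells that had both the medium change and 4sU. For each treatment the label was present from 0 to 30 min, from 30 to 60 min or from 150 to 180 min after the medium change at 500 µM 4sU, or from 0 to 60 min at 200 µM, with 3 arrays in each of the 12 groups. The labels number the arrays of a group but give no word on separate cultures. The p-values therefore rest on the spread among arrays of a group, which may be technical. IFN gamma and IFN alpha were both set against the same mock arrays. RNA from whole cultures cannot tell more cells transcribing a gene from more RNA made per cell.

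IRG proteins protect cells against pathogens that live inside a vacuole, such as Toxoplasma gondii and Chlamydia. They fall into effectors, which load onto the vacuole membrane and break it, and regulators, which sit on the cell's own membranes and hold the effectors there in the inactive, GDP-bound state. The 2 interferons use different receptors, and 2 short promoter motifs are known from interferon-responsive genes: the gamma-activated site (GAS), named for IFN gamma, and the interferon-stimulated response element (ISRE), best known from the response to IFN alpha.

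Igtp and Irgm2 are adjacent coding genes on chromosome 11, with 0 coding genes between them in the GRCm38.p6 gene table. Irgm1 and Ifi47 lie on the same chromosome with 7 coding genes between them. The 250 bases before the transcription start of 4 of the 6 genes are given here from the RefSeq promoter table (GRCm38.p6) to show how far these promoters are alike; the windows of Iigp1 and Gm4951 are not used here. Each sequence runs 5′ to 3′ along the gene's own strand and ends at the base before the start, and capitals mark matches to GAS (TTCNNNGAA, which reads the same on both strands) or to ISRE (GAAA, any 2 bases and GAAA again, or TTTC, any 2 bases and TTTC for the other strand). The Irgm1 window is chr11:48871421-48871670 on the minus strand, the Irgm2 window chr11:58214727-58214976 on the plus strand, the Igtp window chr11:58199306-58199555 on the plus strand and the Ifi47 window chr11:49076337-49076586 on the plus strand.
Irgm1: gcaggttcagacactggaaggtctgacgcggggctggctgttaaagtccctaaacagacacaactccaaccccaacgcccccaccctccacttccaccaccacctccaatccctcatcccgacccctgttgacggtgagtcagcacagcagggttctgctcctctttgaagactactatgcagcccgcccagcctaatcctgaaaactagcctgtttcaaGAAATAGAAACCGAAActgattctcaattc
Irgm2: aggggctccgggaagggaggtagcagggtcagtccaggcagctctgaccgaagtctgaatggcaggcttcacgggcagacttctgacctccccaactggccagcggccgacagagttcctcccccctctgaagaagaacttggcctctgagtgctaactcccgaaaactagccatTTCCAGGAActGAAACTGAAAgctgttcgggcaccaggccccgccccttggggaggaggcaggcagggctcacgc
Igtp: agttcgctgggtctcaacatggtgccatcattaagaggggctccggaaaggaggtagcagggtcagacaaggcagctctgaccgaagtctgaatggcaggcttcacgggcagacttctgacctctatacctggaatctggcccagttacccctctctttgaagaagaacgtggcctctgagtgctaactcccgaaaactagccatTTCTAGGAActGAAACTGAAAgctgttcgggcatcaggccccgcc
Ifi47: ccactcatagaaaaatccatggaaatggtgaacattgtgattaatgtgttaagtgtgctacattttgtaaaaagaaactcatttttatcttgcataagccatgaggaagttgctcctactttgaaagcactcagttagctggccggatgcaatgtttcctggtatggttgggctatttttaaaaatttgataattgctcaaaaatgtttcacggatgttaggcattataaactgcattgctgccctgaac
The Irgm2 window held GAS as TTCCAGGAA, 75 to 67 bases before the start, and ISRE as GAAACTGAAA, 64 to 55 bases before it. The Igtp window held GAS as TTCTAGGAA, 45 to 37 bases before the start, and the same ISRE letters 34 to 25 bases before it. The windows of these neighbouring genes could be aligned locally over 221 columns, of which 197 (89.1%) were identical, against 61 of 85 columns (71.8%) for Igtp and Irgm1. Local alignments with the Ifi47 window covered only 19 to 35 columns, at 70.4% to 78.9% identity, so the percentage alone does not show likeness. In the Irgm1 window 2 ISRE matches overlapped each other, GAAATAGAAA at 30 to 21 and GAAACCGAAA at 24 to 15 bases before the start, and no GAS letters were found. The Ifi47 window held neither motif. Among all 32851 promoter windows of the table, 7.02% held GAS, 2.98% held ISRE and 0.332% held both. A match is a description of letters and not a binding site, and a missing match says only that these letters are not in the 250 bases.

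The arrays read a fibroblast culture with little other cell type signal. All 10 fibroblast markers lay above the filter (median log2 11.76, Vim at 13.15), whereas 0 of 6 lymphocyte, 0 of 7 epithelial and 0 of 7 endothelial markers and 1 of 9 macrophage markers did (Cd14, at 6.17). Mock array 1 of the 0-60 min window stood apart from its group: it correlated at 0.91 and 0.911 with the other 2, which correlated at 0.987 with each other. Array medians lay between log2 3.13 and 3.27. Each probe set binds with its own strength, so levels are compared between groups for 1 gene and never between genes.

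**Figure D1:**
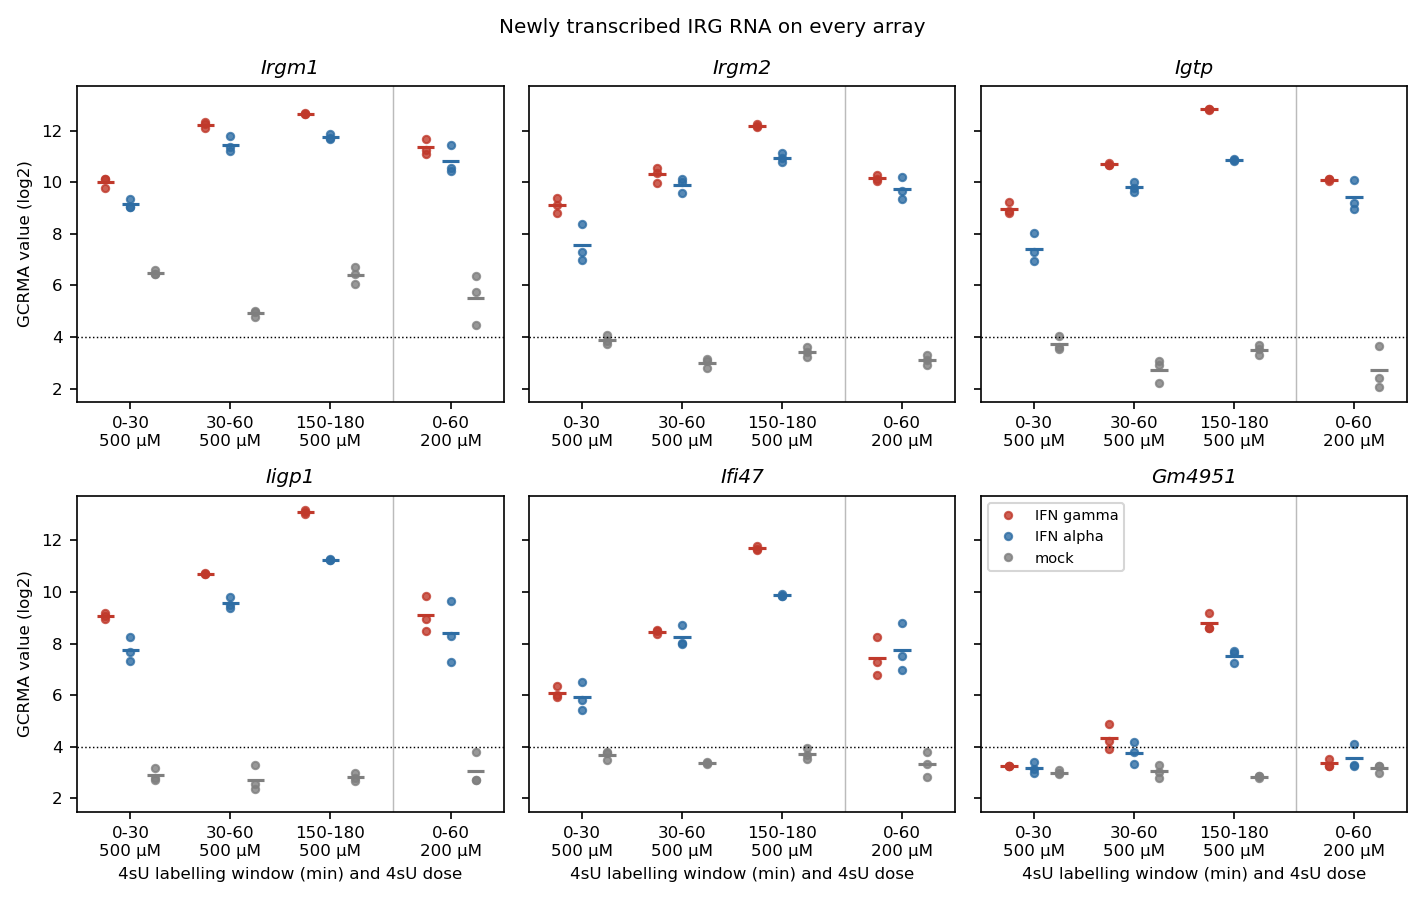
GCRMA values (log2, vertical axis) of the 6 IRG genes on every array, by labelling window in minutes and 4sU concentration (horizontal axis). Points are arrays, bars are means of 3 arrays, and the dotted line is the filter at log2 4. Interferon arrays lie above all mock arrays in every window for 5 genes, and Gm4951 lies at 7.23 to 9.17 under interferon at 150-180 min and at 4.87 or below before that.

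Newly made IRG RNA was already higher in both interferons in the first 30 min window. Under IFN gamma 5 of the 6 genes were called higher than mock at 0-30 min, and 6 of 6 at 30-60 min and at 150-180 min. A call is an adjusted p under 0.05 in limma's moderated test over 9549 genes, and the shares of all genes called higher were 0.754%, 3.82% and 4.37% in these windows. Under IFN alpha 5, 5 and 6 of the 6 were called higher, against 0.377%, 2.4% and 2.58% of all genes. The gene not called at 0-30 min was Gm4951 under both interferons. The median difference of the 6 from mock was log2 4.36, 7.31 and 8.36 under IFN gamma in time order, beside -0.02, -0.05 and -0.1 for all genes. Under IFN alpha it was 3.16, 6.69 and 6.75, beside -0.03, -0.04 and -0.1. Every IFN gamma array lay above every mock array for 6 of 6 genes in each of the 3 windows, as held for 6.08%, 8.25% and 10.2% of all genes. Every IFN alpha array did so for 5, 6 and 6 of the 6 genes, against 4.24%, 6.86% and 6.87%. The IFN gamma count at 0-30 min includes Gm4951, whose arrays all lay under the filter there (3.24 to 3.25, against 2.93 to 3.09 in mock).

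Mock levels of all members except Irgm1 averaged under the filter in every 30 min window, so a fold change of these 5 genes has background as its base rather than a measured mock level. Ranks among genes by difference rest on that background too. In the values that follow, the 3 arrays of a group are given in the order of their numbers, which have no order of their own.

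Irgm1, a regulator that localises to the cell's own membranes and is needed for resistance to several intracellular pathogens, was the only member measured above the filter on all 36 arrays. At 0-30 min it stood at log2 10.12, 9.76 and 10.11 in IFN gamma cells and at 9.36, 9.02 and 9.02 in IFN alpha cells, against 6.45, 6.44 and 6.58 in mock cells. At 30-60 min it stood at 12.1, 12.26 and 12.34 in IFN gamma cells and at 11.22, 11.36 and 11.78 in IFN alpha cells, against 4.98, 5 and 4.77 in mock cells. At 150-180 min the values were 12.67, 12.65 and 12.63 in IFN gamma cells and 11.69, 11.73 and 11.86 in IFN alpha cells, against 6.44, 6.72 and 6.04 in mock cells. No interferon array overlapped a mock array in any of these 3 windows, and the IFN gamma arrays lay above all IFN alpha arrays in each of them. Irgm1 rose 11.4-fold at 0-30 min under IFN gamma (log2 3.51 ± 0.28, standard error of the fit, n = 3 arrays per group, adjusted p = 1.2e-10). The rise over mock was 159-fold at 30-60 min (7.32 ± 0.28, adjusted p = 2.9e-19) and 76.1-fold at 150-180 min (6.25 ± 0.28, adjusted p = 6.5e-18). Under IFN alpha Irgm1 rose 6.25-fold, 92.9-fold and 41-fold in the same 3 windows (adjusted p at most 1.3e-07). The smaller rise in the last window came with a higher mock level: the IFN gamma mean was 12.65 at 150-180 min and 12.23 at 30-60 min, while the mock mean was 6.4 at 150-180 min and 4.92 at 30-60 min.

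Irgm2, a regulator of the same subgroup, was called in every interferon group. At 0-30 min it stood at log2 9.4, 8.8 and 9.1 in IFN gamma cells and at 8.38, 7 and 7.31 in IFN alpha cells, against 4.09, 3.74 and 3.83 in mock cells. At 30-60 min the values were 9.98, 10.56 and 10.37 in IFN gamma cells and 9.59, 10.01 and 10.11 in IFN alpha cells, against 3.08, 3.13 and 2.79 in mock cells. At 150-180 min they were 12.17, 12.12 and 12.26 in IFN gamma cells and 11.12, 10.94 and 10.79 in IFN alpha cells, against 3.42, 3.24 and 3.62 in mock cells. The 2 interferons overlapped at 30-60 min and were apart in the first and last windows. Irgm2 rose 37.2-fold, 158-fold and 432-fold over mock under IFN gamma in time order (log2 5.22, 7.3 and 8.76, each ± 0.24, adjusted p at most 1.4e-16). Under IFN alpha it rose 12.8-fold, 119-fold and 183-fold (log2 3.68, 6.9 and 7.52, each ± 0.24, adjusted p at most 2.7e-12).

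Igtp, also called Irgm3, is the regulator found on the endoplasmic reticulum, and its values followed those of its neighbour Irgm2. At 0-30 min it stood at log2 9.24, 8.79 and 8.9 in IFN gamma cells and at 8.02, 6.93 and 7.28 in IFN alpha cells, against 4.02, 3.6 and 3.53 in mock cells. At 30-60 min the values were 10.65, 10.66 and 10.75 in IFN gamma cells and 9.76, 9.63 and 10 in IFN alpha cells, against 2.2, 3.07 and 2.91 in mock cells. At 150-180 min they were 12.79, 12.83 and 12.84 in IFN gamma cells and 10.84, 10.9 and 10.83 in IFN alpha cells, against 3.69, 3.31 and 3.53 in mock cells. The 3 treatments did not overlap in any of these windows. Igtp rose 38.3-fold, 249-fold and 636-fold over mock under IFN gamma (log2 5.26, 7.96 and 9.31, each ± 0.29, adjusted p at most 1.3e-14). It rose 12.9-fold, 134-fold and 163-fold under IFN alpha (log2 3.69, 7.07 and 7.35, each ± 0.29, adjusted p at most 2.5e-10). Over the 12 group means Igtp and Irgm2 correlated at r = 0.998, the closest of any pair of members. The IRG genes are related in sequence, and binding of one gene's RNA to another's probes was not tested.

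Iigp1, also called Irga6, is the best-studied effector and coats the vacuole of Toxoplasma gondii. Its gene lies on chromosome 18. On the probe set of higher mean, which represents the gene in every fit, it stood at log2 9.07, 8.97 and 9.18 in IFN gamma cells and at 8.25, 7.34 and 7.69 in IFN alpha cells at 0-30 min, against 2.79, 3.16 and 2.72 in mock cells. At 30-60 min the values were 10.68, 10.73 and 10.68 in IFN gamma cells and 9.48, 9.38 and 9.82 in IFN alpha cells, against 2.54, 2.36 and 3.28 in mock cells. At 150-180 min they were 13.11, 13.04 and 13.17 in IFN gamma cells and 11.22, 11.25 and 11.29 in IFN alpha cells, against 2.69, 2.99 and 2.79 in mock cells. Each treatment kept to its own range in each of these windows. By difference from mock Iigp1 ranked first of 9549 genes in all 3 windows under IFN gamma and in the first window under IFN alpha, and under IFN alpha it was in place 6 at 30-60 min and in place 2 at 150-180 min. The differences were log2 6.18, 7.97 and 10.28 under IFN gamma and 4.87, 6.83 and 8.43 under IFN alpha (each ± 0.36, adjusted p at most 7.5e-11). The other Iigp1 probe set also passed in every one of these comparisons, with smaller differences of log2 4.22, 5.83 and 9.01 under IFN gamma and 2.64, 4.74 and 7.06 under IFN alpha. Among the 21874 kept probe sets it ranked 7, 12 and 5 under IFN gamma and 19, 37 and 13 under IFN alpha. On that same scale the representing probe set ranked 1, 2 and 1 under IFN gamma and 2, 7 and 2 under IFN alpha. The gap between the 2 probe sets was log2 1.27 to 2.23 over all 8 comparisons with mock, so the size and rank of the Iigp1 rise depend on the probe set and its direction does not.

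Ifi47, also called Irgd, is an effector of the same class as Iigp1. At 0-30 min it stood at log2 6.35, 5.94 and 5.99 in IFN gamma cells and at 6.52, 5.42 and 5.8 in IFN alpha cells, against 3.78, 3.48 and 3.75 in mock cells. At 30-60 min the values were 8.37, 8.51 and 8.5 in IFN gamma cells and 8, 8.03 and 8.72 in IFN alpha cells, against 3.35, 3.37 and 3.42 in mock cells. At 150-180 min they were 11.62, 11.66 and 11.78 in IFN gamma cells and 9.91, 9.86 and 9.86 in IFN alpha cells, against 3.54, 3.67 and 3.96 in mock cells. The interferon groups overlapped in the first 2 windows and came apart in the last. Ifi47 rose 5.36-fold at 0-30 min under IFN gamma (log2 2.42 ± 0.33, adjusted p = 1.4e-05), then 33.8-fold (5.08 ± 0.33) and 250-fold (7.96 ± 0.33). Under IFN alpha it rose 4.74-fold (2.25 ± 0.33, adjusted p = 7.5e-05), 29.2-fold (4.87 ± 0.33) and 71.3-fold (6.16 ± 0.33).

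Gm4951 is a less studied gene of the family with 2 coding genes between it and Iigp1, and its rise came late. At 0-30 min it stood at log2 3.24, 3.24 and 3.25 in IFN gamma cells and at 3.41, 2.99 and 3.12 in IFN alpha cells, against 2.93, 3.09 and 2.98 in mock cells, all under the filter. At 30-60 min the values were 4.87, 3.93 and 4.24 in IFN gamma cells and 3.33, 4.17 and 3.81 in IFN alpha cells, against 3.02, 3.31 and 2.8 in mock cells. At 150-180 min they were 9.17, 8.62 and 8.62 in IFN gamma cells and 7.62, 7.71 and 7.23 in IFN alpha cells, against 2.8, 2.86 and 2.88 in mock cells. Only 10 of the 36 arrays read Gm4951 above the filter, among them all 6 interferon arrays of the last window. Under IFN gamma the difference was log2 0.25 ± 0.23 at 0-30 min (adjusted p = 1), 1.3 ± 0.23 at 30-60 min (2.46-fold, adjusted p = 0.00017) and 5.96 ± 0.23 at 150-180 min (62.1-fold, adjusted p = 1.9e-19). Under IFN alpha it was 0.18 ± 0.23 at 0-30 min (adjusted p = 1), 0.73 ± 0.23 at 30-60 min (adjusted p = 0.12) and 4.68 ± 0.23 at 150-180 min (25.6-fold, adjusted p = 1.1e-16). Without IFN alpha array 1 the 30-60 min difference was 0.95 and passed (adjusted p = 0.028). Values under the filter lie within background, so a small rise at 0-30 min was not detectable on these arrays.

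**Figure D2:**
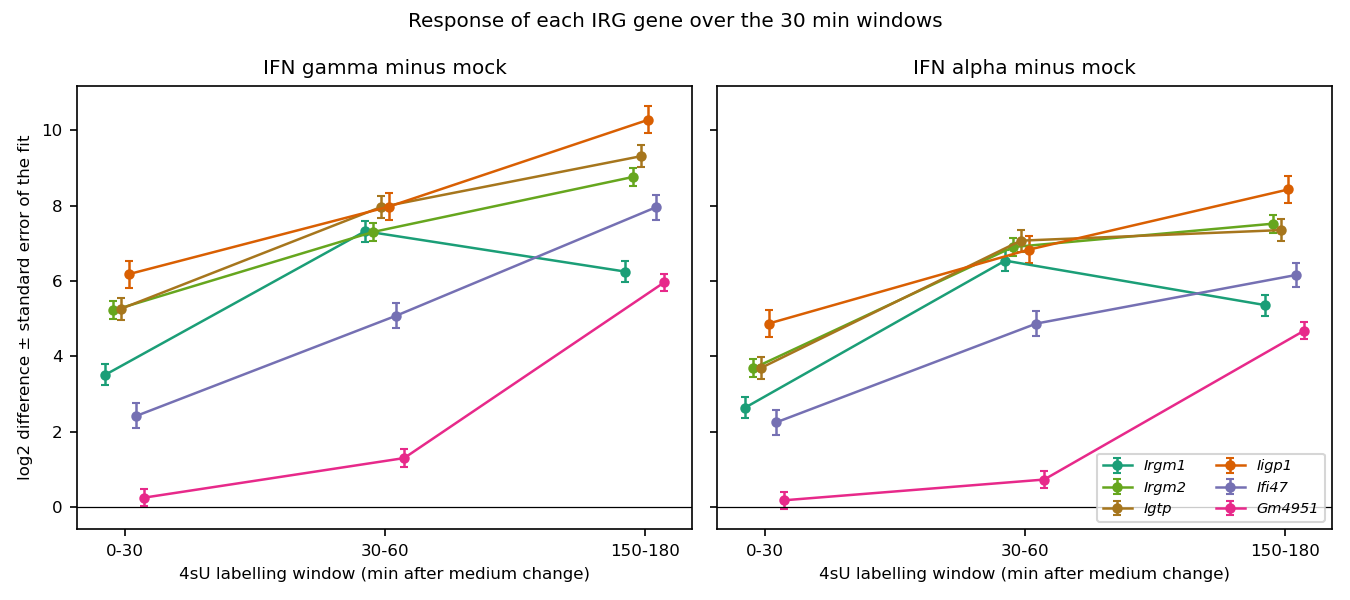
Log2 difference from mock (vertical axis) of each IRG gene in the 3 windows of 30 min (horizontal axis, minutes after the medium change), IFN gamma on the left and IFN alpha on the right. Points are differences of means of 3 arrays and bars are standard errors of the fit. Gm4951 starts at 0.25 and 0.18, and Irgm1 is lower in the last window (6.25 and 5.36) than in the middle one (7.32 and 6.54).

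The rise itself grew between the first and the second 30 min. Tested as a difference of differences, the response of 4 of the 6 genes to IFN gamma was larger at 30-60 min than at 0-30 min, against 1.27% of all genes, and that of 5 of the 6 to IFN alpha, also against 1.27%. By difference from mock Irgm1 gained most, log2 3.81 ± 0.39 under IFN gamma (adjusted p = 1.3e-07) and 3.89 ± 0.39 under IFN alpha (adjusted p = 5e-08). The mock level of Irgm1 was itself lower at 30-60 min, by log2 1.57 on average. Its mean went from 10 to 12.23 under IFN gamma and from 9.13 to 11.45 under IFN alpha. Mock levels of the other members lie in background, so the order of the gains among genes rests on unlike mock levels. Ifi47 gained 2.66 ± 0.47 under IFN gamma (adjusted p = 0.00076) and 2.62 ± 0.47 under IFN alpha (adjusted p = 0.00071). Igtp gained 2.7 ± 0.41 and Irgm2 2.09 ± 0.34 under IFN gamma, and 3.37 ± 0.41 and 3.22 ± 0.34 under IFN alpha (adjusted p at most 0.00022). The Igtp mean went from 8.98 to 10.69 under IFN gamma and from 7.41 to 9.8 under IFN alpha. For Irgm2 it went from 9.1 to 10.31 and from 7.56 to 9.9. The mock levels of Igtp and Irgm2, within or near background, moved by log2 -0.99 and -0.88 over the same step. Iigp1, already high in the first window, gained 1.79 ± 0.52 under IFN gamma (adjusted p = 0.086) and 1.96 ± 0.52 under IFN alpha (adjusted p = 0.049). Arrays of 1 number deviated together in the 3 first-hour windows, and with array number as a block within windows the IFN gamma gain of Iigp1 passed (adjusted p = 4e-04). Where that block, called the array block from here on, changes a call among these windows, its p is given beside the other. The IFN alpha call of Iigp1 is fragile: it was lost in 27 of the 36 fits that left out 1 array, with adjusted p between 0.0055 and 0.22 over all 36, and with no filter on low values (adjusted p = 0.14). Over all 21874 kept probe sets, the other Iigp1 probe set gained 2.1 ± 0.5 under IFN alpha (adjusted p = 0.031). In that same fit the probe set representing Iigp1 did not pass (1.96, adjusted p = 0.085). Gm4951 gained 1.06 and 0.55 under IFN gamma and IFN alpha, and neither passed (adjusted p = 0.14 and 1).

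Between 30-60 min and 150-180 min the change of response from mock differed among the members. The response to IFN gamma grew further for 4 of the 6 genes, against 1.2% of all genes, and the response to IFN alpha for 1 of the 6, against 0.429%. Gm4951 grew most, by log2 4.66 ± 0.33 under IFN gamma (adjusted p = 5.3e-12) and by 3.95 ± 0.33 under IFN alpha (adjusted p = 3.2e-10). Under IFN gamma Ifi47 grew by 2.88 ± 0.47 (adjusted p = 0.00017), Iigp1 by 2.31 ± 0.52 (adjusted p = 0.0082) and Irgm2 by 1.45 ± 0.34 (adjusted p = 0.012). The Irgm2 call was lost without IFN gamma 30-60 min array 1 (adjusted p = 0.059) and without mock 150-180 min array 2 (adjusted p = 0.051). For Igtp the change was 1.35 ± 0.41 (adjusted p = 0.1), and it passed at 1.86 after adding 16 before the log2 (adjusted p = 4.9e-05) and without mock 30-60 min array 1 (1.62, adjusted p = 0.036). For Irgm1 it was negative, -1.06 ± 0.39 under IFN gamma (adjusted p = 0.26) and -1.18 ± 0.39 under IFN alpha (adjusted p = 0.45). The mock mean of Irgm1 was 6.4 at 150-180 min and 4.92 at 30-60 min. Its interferon means were higher at 150-180 min too, 12.65 against 12.23 under IFN gamma and 11.76 against 11.45 under IFN alpha. Mock levels of the other members lie in background, where a shift of this kind is not measured. Under IFN alpha the changes of Iigp1 (1.59 ± 0.52, adjusted p = 0.4), Ifi47 (1.29 ± 0.47, adjusted p = 0.6), Irgm2 (0.62 ± 0.34) and Igtp (0.28 ± 0.41) did not pass. Over all 21874 kept probe sets, the other Iigp1 probe set changed by 2.32 ± 0.5 under IFN alpha and passed (adjusted p = 0.02). With only the arrays of the 2 windows in the fit, 6 of the 6 IFN gamma changes passed, among them Igtp (adjusted p = 0.0021) and, downward, Irgm1 (adjusted p = 0.0077). Leaving out mock 0-60 min array 1 also gave 6 of 6. In the fit of the 2 windows alone, 4 of the 6 IFN alpha changes passed, among them Iigp1 (adjusted p = 0.0012), Ifi47 (adjusted p = 0.0041) and, downward, Irgm1 (adjusted p = 0.0069). Calls over all genes, in either direction, moved as well. For the IFN gamma change they were 182 in the main fit, 149 to 1217 over the alternatives and 286 without mock 0-60 min array 1. For the IFN alpha change they were 45 in the main fit and 32 to 882 over the alternatives. The all-gene count for the fit of the 2 windows alone is not given here, so its member counts cannot be weighed.

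IFN gamma gave more newly made RNA than IFN alpha for 5 of the IRG genes late in the course and for Igtp and Irgm2 in the first 30 min. At 0-30 min 2 of the 6 genes were called higher under IFN gamma, against 0.524% of all genes, at 30-60 min 0 of 6, against 2.72%, and at 150-180 min 5 of 6, against 2.8%. At 30-60 min 4 of the 6 had an unadjusted p under 0.05 in limma. The share of all genes under this looser rule is not given here, so that count cannot be weighed. Both interferons were given at 100 U/ml, and units of one are not matched to units of the other in effect. Igtp was 2.96-fold higher in IFN gamma cells than in IFN alpha cells at 0-30 min (log2 1.57 ± 0.29, adjusted p = 0.0023) and 3.9-fold higher at 150-180 min (1.96 ± 0.29, adjusted p = 1.2e-05). Irgm2 was 2.9-fold higher at 0-30 min (1.54 ± 0.24, adjusted p = 0.00018) and 2.36-fold higher at 150-180 min (1.24 ± 0.24, adjusted p = 0.00061). At 30-60 min Igtp differed by 0.89 (adjusted p = 0.076, and 0.021 with the array block) and Irgm2 by 0.4 (adjusted p = 0.6).

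Iigp1 and Irgm1 lay higher under IFN gamma in every 30 min window, but most of their calls depended on the fit. Iigp1 was higher under IFN gamma by log2 1.31 ± 0.36 at 0-30 min (adjusted p = 0.13, and 0.00037 with the array block), by 1.14 ± 0.36 at 30-60 min (adjusted p = 0.066, and 0.00039 with the array block) and by 1.85 ± 0.36 at 150-180 min (3.61-fold, adjusted p = 0.00076). Its other probe set gave 1.58, 1.09 and 1.95, of which the first and the last passed over all 21874 kept probe sets (adjusted p = 0.025 and 0.00042). Irgm1 was higher by 0.86 ± 0.28, 0.78 ± 0.28 and 0.89 ± 0.28 (adjusted p = 0.37, 0.12 and 0.065, and 0.03 and 0.013 in the first 2 windows with the array block). The arrays of these 2 genes did not overlap between the interferons in any of the 3 windows, as held for 5%, 7.18% and 10.9% of all genes with IFN gamma higher. Leaving out mock 0-60 min array 1, which enters the spread but not these differences, brought Irgm1 to adjusted p = 0.023, 0.011 and 0.0032, and at 30-60 min Iigp1 to 0.048 and Igtp to 0.012. For Iigp1 at 0-30 min, leaving out IFN alpha 0-60 min array 2 or 3 gave adjusted p = 0.017 or 0.029. These are picked from 36 fits that each left out 1 array, over which 2 to 3, 0 to 3 and 5 to 6 members were called in the 3 windows. Without mock 0-60 min array 1, calls over all genes in either direction were 85, 709 and 552, in place of 68, 544 and 448.

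Ifi47 and Gm4951 were called higher under IFN gamma at 150-180 min, and not in the earlier windows. Ifi47 differed between IFN gamma and IFN alpha by log2 0.18 at 0-30 min (95% interval -0.5 to 0.86) and by 0.21 at 30-60 min (95% interval -0.47 to 0.89), and it was higher by 1.81 ± 0.33 at 150-180 min (3.5-fold, adjusted p = 3e-04). Gm4951 differed by 0.07 at 0-30 min (95% interval -0.4 to 0.54), by 0.57 at 30-60 min (adjusted p = 0.21) and by 1.28 ± 0.23 at 150-180 min (2.43-fold, adjusted p = 0.00023). Whether the difference between the interferons itself changed from window to window was also tested, and 0 of the 6 genes passed for either step, against 1.14% and 1.04% of all genes called in either direction. In limma 1 of the 6 had an unadjusted p under 0.05 for the first step and 4 of the 6 for the second, with no share of all genes to weigh these counts against. The smallest adjusted p values were those of Irgm2, whose difference shrank by log2 1.13 between 0-30 and 30-60 min (adjusted p = 0.12, and 0.0092 with the array block), and of Ifi47, whose difference grew by 1.6 between 30-60 and 150-180 min (adjusted p = 0.14, and 0.034 without IFN alpha 0-60 min array 2).

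**Figure D3:**
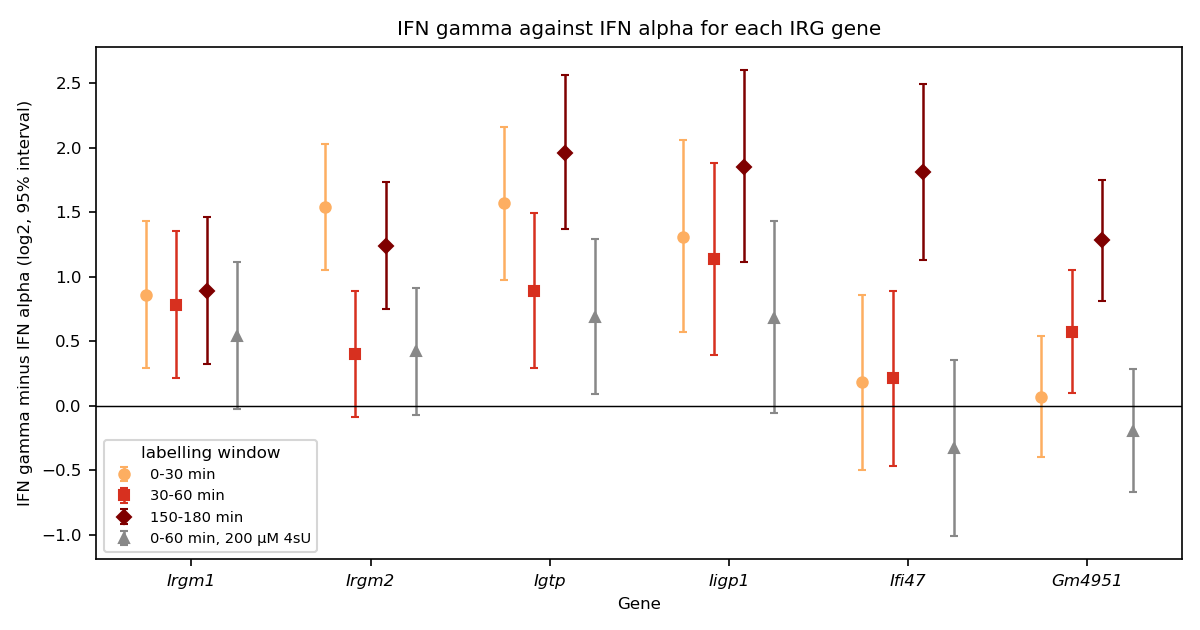
Log2 difference of IFN gamma minus IFN alpha (vertical axis) for each IRG gene (horizontal axis) in the 4 labelling windows, with 95% intervals of the fit. At 150-180 min all 6 differences lie above 0, from 0.89 for Irgm1 to 1.96 for Igtp, and in the 0-60 min window Ifi47 and Gm4951 lie below 0 at -0.33 and -0.2.

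The fourth window covered the whole first hour at the lower 4sU concentration, and its arrays spread more. Against mock 5 of the 6 genes were called higher under IFN gamma (3.83% of all genes) and 5 of the 6 under IFN alpha (1.91%), again all but Gm4951. Igtp stood at log2 10.14, 10.11 and 10.03 in IFN gamma cells and at 9.19, 10.07 and 8.96 in IFN alpha cells, against 3.65, 2.41 and 2.04 in mock cells. Its differences from mock, 7.4 ± 0.29 and 6.71 ± 0.29, ranked first of 9549 genes under both interferons, with Irgm2 in place 2 under both (7.04 and 6.62, each ± 0.24). Iigp1 stood at 8.95, 9.84 and 8.49 in IFN gamma cells and at 8.29, 9.65 and 7.29 in IFN alpha cells, against 2.73, 3.8 and 2.7 in mock cells. Irgm1 stood at 11.25, 11.69 and 11.09 in IFN gamma cells and at 10.53, 11.44 and 10.44 in IFN alpha cells, against 4.46, 6.36 and 5.73 in mock cells. Every interferon array lay above every mock array for these genes, and also for Irgm2 and Ifi47, that is 5 of 6 under IFN gamma (6.05% of all genes) and 5 of 6 under IFN alpha (4.7%). Array 2 was the highest IFN alpha array for all 7 probe sets and the highest IFN gamma array for 5 of them. Iigp1, Irgm1 and Ifi47 rose by 6.01 ± 0.36, 5.82 ± 0.28 and 4.12 ± 0.33 under IFN gamma and by 5.33 ± 0.36, 5.29 ± 0.28 and 4.45 ± 0.33 under IFN alpha (adjusted p at most 6.4e-11). Without mock array 1, Igtp rose by 7.87 and 7.18 and Irgm1 by 5.3 and 4.76 under IFN gamma and IFN alpha, and no call changed. For Gm4951 the difference was 0.19 ± 0.23 under IFN gamma (adjusted p = 0.64) and 0.39 ± 0.23 under IFN alpha (adjusted p = 0.44).

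Between the interferons 0 of the 6 genes were called in the whole-hour window, against 1.65% of all genes higher under IFN gamma, and the arrays of all 6 genes overlapped, while IFN gamma arrays were all higher for 4.78% of all genes. In limma 1 of the 6, Igtp, had an unadjusted p under 0.05, with no share of all genes to weigh this count against. The differences of IFN gamma minus IFN alpha ran from log2 -0.33 for Ifi47 to 0.69 for Igtp. For Iigp1 the difference was 0.68 (adjusted p = 0.49, and 0.039 with the array block), and it was 1.3 without IFN alpha array 2 (adjusted p = 0.02). Standard deviations of the members within a group reached 1.19 in this window under IFN alpha, against at most 0.73 in the 30 min windows.

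The mock level of some members moved between windows, and so did most genes. From 0-30 to 30-60 min the mock level was lower at 30-60 min for Irgm1 (log2 -1.57 ± 0.28, adjusted p = 1.8e-05), Igtp (-0.99 ± 0.29, adjusted p = 0.0045) and Irgm2 (-0.88 ± 0.24, adjusted p = 0.0022), while 51.8% of all genes were called lower and the median of all genes was -0.52. From 30-60 to 150-180 min it was higher at 150-180 min for Irgm1 (1.48 ± 0.28, adjusted p = 3.3e-05) and Igtp (0.78 ± 0.29, adjusted p = 0.021), while 53.4% of all genes were called higher and the median was 0.55. Quantile normalization put these medians at -0.42 and 0.46, with the direction and call of each member kept. These counts of 3 and 2 of 6 are near the share of all genes. Only Irgm1 had group means above the filter, so for Igtp and Irgm2, of which 1 mock array of the 0-30 min window read above it (4.02 and 4.09), the difference lies within or near background values, and the Igtp call in the second step was lost without mock 30-60 min array 1 or mock 150-180 min array 1. The part of the mock shift in the changes of response was not tested.

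In order of mean level, all 8 interferon groups stood above all 4 mock groups for each of the 6 genes, and IFN gamma at 150-180 min stood at the top. IFN alpha at 150-180 min came second for all members except Irgm1, for which IFN gamma at 30-60 min was second (12.23 ± 0.13, SD, n = 3) and IFN alpha at 150-180 min came next (11.76 ± 0.09). Iigp1 ran from 13.11 ± 0.06 in the highest group to 2.73 ± 0.49 in mock at 30-60 min, and 7 of its 11 neighbouring pairs of groups overlapped in their arrays, all of them first-hour interferon groups or mock groups. Igtp had the fewest overlapping neighbouring pairs, 4 of 11, against 6 for Irgm1, Irgm2 and Ifi47 and 7 for Gm4951. Neighbours were set by the same means, and some pairs are mock groups in background. The pairs were counted for the 6 members only, so these counts have no share of all genes beside them. For Gm4951, IFN alpha at 0-30 min (3.17 ± 0.22) was next to mock at 0-60 min (3.16 ± 0.16) with overlapping arrays.

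Outside the family the genes with the most similar pattern over the 12 group means were not the same for every member. These correlations are descriptions over groups measured on the same arrays. Tap1, which carries peptides to MHC class I, was closest to Igtp (r = 0.991), Irgm2 (0.991), Irgm1 (0.988) and Iigp1 (0.969), followed for all 4 by Irf9 and the chemokine Cxcl10 at r between 0.94 and 0.971. Ifi47 was closest to the guanylate-binding protein genes Gbp2 (0.99), Gbp3 (0.986) and Gbp7 (0.985). Gm4951 was closest to Gbp2b (0.972), Greb1l (0.97) and Nlrc5, the MHC class I transactivator (0.966). Among the members, Igtp, Irgm1, Irgm2 and Iigp1 correlated with each other at 0.972 to 0.998, and Gm4951 correlated with the others at 0.605 (Irgm1) to 0.821 (Ifi47).

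**Figure D4:**
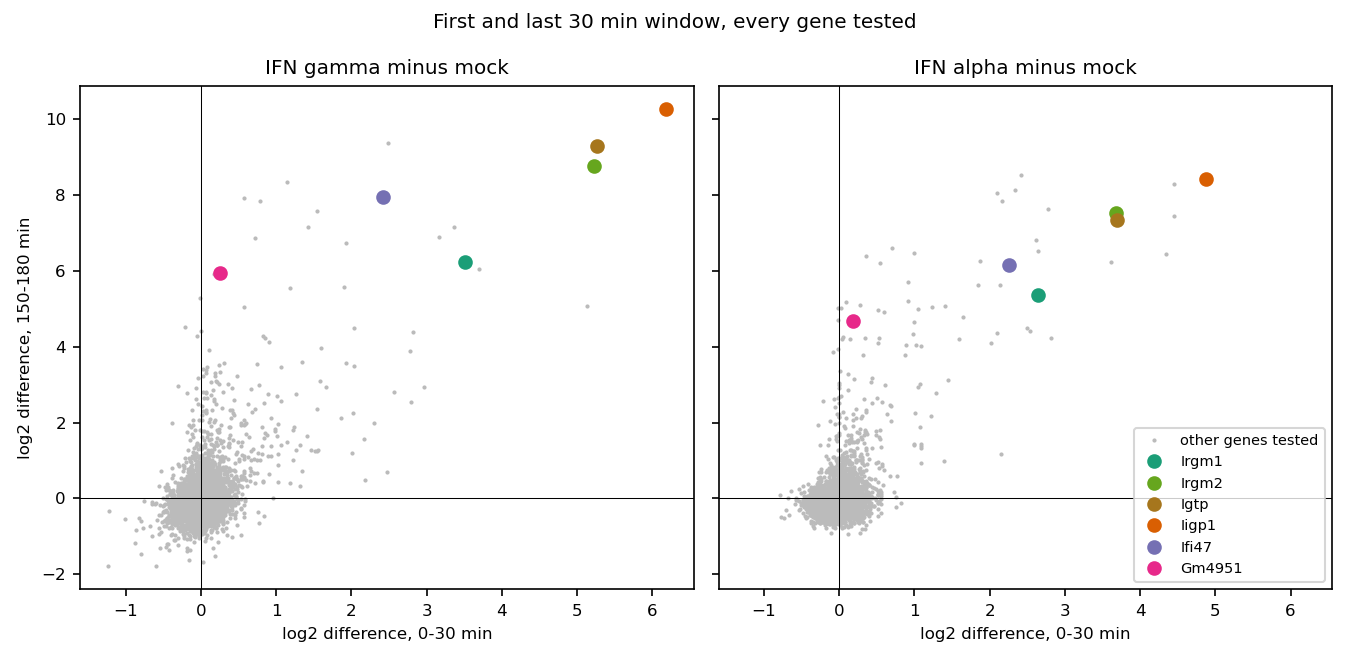
Log2 difference from mock at 0-30 min (horizontal axis) and at 150-180 min (vertical axis) for the 9549 genes tested, IFN gamma on the left and IFN alpha on the right. Coloured points are the IRG genes and grey points all others. Iigp1 lies farthest to the right in both panels (6.18 and 4.87), and Gm4951 lies near 0 on the horizontal axis with late differences of 5.96 and 4.68.

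Of 12 further IRG-family symbols, 2 could be tested. Gm12185 averaged log2 5.74 in IFN gamma cells and 3.44 in IFN alpha cells at 150-180 min, against 2.57 in mock cells. That is a rise of 3.17 ± 0.18 under IFN gamma (9.02-fold, adjusted p = 1.7e-15) and of 0.87 ± 0.18 under IFN alpha (1.83-fold, adjusted p = 0.0013), the second below the filter on both sides, and it was called in no earlier window. Irgq was not called in any comparison with mock. Tgtp1 and Tgtp2 share a probe set with more than 1 symbol and are not reported.

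The guanylate-binding proteins and Mx proteins, large GTPases that act beside the IRG proteins, gave 3, 4 and 7 of 8 tested genes higher under IFN gamma over the 3 windows, beside 0.754%, 3.82% and 4.37% of all genes. Under IFN alpha they gave 3, 6 and 7 of 8, beside 0.377%, 2.4% and 2.58%. Their median difference at 0-30 min was log2 0.65 under IFN gamma and 0.95 under IFN alpha, beside 4.36 and 3.16 for the 6 IRG genes followed here. For the 2 further IRG-family genes tested the median was 0.07 and 0.02. Gbp2 was not called at 0-30 min (1.15 ± 0.35 under IFN gamma, adjusted p = 0.23) and rose by 8.34 ± 0.35 under IFN gamma at 150-180 min. Gbp6 rose by 2.49 ± 0.31 at 0-30 min and by 9.38 ± 0.31 at 150-180 min under IFN gamma. Gbp2b, the closest match to Gm4951, was listed at log2 2.02 to 2.06 in both interferons through the first hour of 30 min windows and rose by 4.42 ± 0.1 under IFN gamma (21.4-fold) and by 2.67 ± 0.1 under IFN alpha (6.35-fold) at 150-180 min.

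Genes of interferon signalling were called higher in 5, 8 and 10 of 18 under IFN gamma, beside 0.754%, 3.82% and 4.37% of all genes, and in 3, 6 and 6 of 18 under IFN alpha, beside 0.377%, 2.4% and 2.58%. Irf1, an early transcription factor of the response, rose by 5.14 ± 0.19, 5.86 ± 0.19 and 5.08 ± 0.19 under IFN gamma and by 2.15 ± 0.19, 4.09 ± 0.19 and 1.17 ± 0.19 under IFN alpha. Socs1, a feedback inhibitor of the receptors' kinases, rose by 2.82 ± 0.34, 3.3 ± 0.34 and 4.4 ± 0.34 under IFN gamma. Under IFN alpha Socs1 differed by 1.08 at 0-30 min (adjusted p = 0.62) and rose by 1.26 ± 0.34 and 1.37 ± 0.34 in the later windows.

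Genes that mark pathogen vacuoles or conjugate the autophagy proteins on which IRG loading depends gave 1, 2 and 3 of 19 tested genes higher under IFN gamma over the 3 windows (0.754%, 3.82% and 4.37% of all genes) and 1, 2 and 3 of 19 under IFN alpha (0.377%, 2.4% and 2.58%), with medians between log2 -0.11 and 0.08. The ubiquitin ligase Trim21 rose in each window under IFN gamma (2.04, 3.8 and 4.51, each ± 0.26) and under IFN alpha (2.54, 4.75 and 4.41, each ± 0.26). Rnf213 rose by 3.32 ± 0.31 under IFN gamma and by 5.18 ± 0.31 under IFN alpha at 150-180 min, and Ube2l6 by 1.12 ± 0.23 and 1.54 ± 0.23. Among the autophagy conjugation genes, Atg12 was the only one called against mock in these windows, higher by 0.76 ± 0.13 under IFN gamma at 30-60 min (adjusted p = 8.8e-05).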

How the data were processed

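Newly transcribed RNA of 36 samples was read on 1 Affymetrix array each, and the number of arrays limits the precision. The authors deposited log2 values made with GCRMA, per the submitters' processing notes, in 1 table of 45101 probe sets; its version and a genome build are not given in the sources used here. Groups came from the sample labels. Probe sets with log2 above 4 in at least 3 arrays were kept (21874). Each gene was represented by its kept single-symbol probe set of highest mean, and 1 linear model over all 12 groups was fitted to 9549 genes with limma 3.58.1 in R 4.3.3 (moderated test with intensity trend, Benjamini-Hochberg adjustment, threshold 0.05, 24 residual and 6.8 prior degrees of freedom). Every adjusted p in the text comes from limma. The script was tested on simulated data. Symbols came from the platform annotation: 34945 probe sets have 1 symbol, 932 several and 9160 none. Promoters were read from a RefSeq table with Python 3.11.15 and aligned with Biopython 1.88.

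The members, lists and alternatives were chosen with earlier results of these data known. Genes named outside the family are the 3 of highest Pearson correlation with each member over 12 group means, and, from the lists, Irf1, Socs1, Gbp2, Gbp6 and at most 3 called genes per list and comparison with the largest differences; the Gbp2b values follow from its likeness to Gm4951. The alternatives covered the filter, the scale, the normalization, the probe sets and arrays used, the intensity trend, array weights, array number as a block, and leaving out each array. Same-numbered arrays of different treatments deviated together (correlation above 0.1) in 9 of 9 pairs in the 0-30, 30-60 and 0-60 min windows and in 7 of 9 at 150-180 min, so the numbers were taken to pair arrays in the first 3 of these only.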

Additional observations from a re-analysis of the deposited data

Results flagged for a closer look

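A response that changed between consecutive windows, tested as a difference of differences in limma, drew attention in 14 cases. From 0-30 to 30-60 min the response to IFN gamma grew by log2 3.81 for Irgm1, 2.7 for Igtp, 2.66 for Ifi47 and 2.09 for Irgm2. Over the same step the response to IFN alpha grew by 3.89 for Irgm1, 3.37 for Igtp, 3.22 for Irgm2, 2.62 for Ifi47 and 1.96 for Iigp1. From 30-60 to 150-180 min the response to IFN gamma grew by 4.66 for Gm4951, 2.88 for Ifi47, 2.31 for Iigp1 and 1.45 for Irgm2, and that to IFN alpha by 3.95 for Gm4951. The Irgm1 cases stand beside a mock level that was log2 1.57 lower at 30-60 min than at 0-30 min, and the Igtp and Irgm2 cases beside mock levels 0.99 and 0.88 lower. Groups of 3 arrays are too small for a test of single outlying arrays.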

How the results depend on the processing

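Each of the 120 gene results (6 genes, 20 comparisons) was recomputed under 11 alternatives, 2 more chosen after seeing the data (no 0-60 min arrays, and the array block fitted on the compared windows alone), and 36 fits that each left out 1 array; the 0-60 min comparisons have no value without the 0-60 min arrays. The number of members called higher than mock stayed within 1.5 times under all of them. IFN gamma minus IFN alpha was less stable. At 0-30 min 4 members were called, in place of 2, when the fit held no other windows' arrays, with array weights, with array number as a block within windows, with that block and only those arrays, and without all 0-60 min arrays. At 30-60 min 3 members were called, in place of 0, under the same alternatives and after adding 16 before the log2, and leaving out 1 array gave 0 to 3. At 0-60 min the block gave 1 in place of 0, and leaving out 1 array gave 0 to 1. For the IFN alpha change from 30-60 to 150-180 min the same 5 alternatives gave 4 in place of 1, and leaving out 1 array gave 1 to 2. For the change of the IFN gamma minus IFN alpha difference from 0-30 to 30-60 min, in place of 0, array weights gave 2, the block 1, and the block with only the arrays compared 1. For the next step, in place of 0, adding 16 gave 2, only the arrays compared 2, array weights 3, the block 1, the block with only the arrays compared 4, and no 0-60 min arrays 1. Leaving out 1 array gave 0 to 1 for both steps. For mock, adding 16 left 1 of 3 and then 1 of 2 calls, the block 1 of 2, and leaving out 1 array 1 to 2 in the second step. The cause of these moves was not tested.

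The array number as a replicate block over all windows changed no call. Within windows, the block also brought late results past the threshold that involve the 150-180 min arrays, which the numbers pair only in part: Irgm1 between the interferons (adjusted p = 0.0048), the IFN gamma changes of Igtp (0.023) and Irgm1 (0.029), the IFN alpha changes of Iigp1 (0.0032), Ifi47 (0.018) and Irgm1 (0.04), and the change of the Ifi47 difference between interferons (0.0012), and it took the mock call of Igtp (0.096).

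Signs turned only for values that were not called. With array weights these were Ifi47 between the interferons at 30-60 min (-0.05) and its change from 0-30 to 30-60 min (-0.39), and in mock Gm4951 (-0.07) and Iigp1 (0.04) from 0-30 to 30-60 min and Iigp1 (-0.09) from 30-60 to 150-180 min. With the block, mock Gm4951 was -0.11 with all or only the compared arrays in the first step and 0.04 with only the compared arrays in the second, where mock Iigp1 was -0.14 and, with only the compared arrays, -0.22. Leaving out 1 array moved IFN gamma minus IFN alpha between -0.02 and 0.19 for Gm4951 and between -0.07 and 0.48 for Ifi47 at 0-30 min, and between -0.35 and 0.09 and between -0.75 and 0.19 at 0-60 min. It moved the change of that difference between -0.27 and 0.28 for Ifi47, -0.42 and 0.04 for Iigp1 and -0.2 and 0.08 for Irgm1 in the first step, and between -0.05 and 0.23 for Irgm1 in the second. In mock it moved Gm4951 between -0.09 and 0.17 and Iigp1 between -0.44 and 0.02 in the first step, and Iigp1 between -0.08 and 0.38 in the second. Leaving out IFN alpha 0-30 min array 1 brought the change of the Irgm2 difference past the threshold (-1.54, adjusted p = 0.0017).

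Over all genes, counts of calls moved more: 76, 562 and 564 genes for IFN gamma against mock in the 3 windows became 47 to 200, 450 to 1550 and 395 to 3599, and 36, 247 and 257 for IFN alpha became 25 to 81, 195 to 801 and 220 to 3084. The 47 came without mock 0-30 min array 3. For IFN gamma minus IFN alpha, 68 genes at 0-30 min, 544 at 30-60 min and 383 at 0-60 min became 43 to 205, 428 to 1268 and 76 to 912. For the change of that difference, 109 and 99 genes became 88 to 626 and 68 to 501 in the 2 steps. Member counts under an alternative therefore stand beside changed counts over all genes. Adding 16 before the log2 shrank differences over background mock values, to 8.58 for Iigp1 under IFN gamma at 150-180 min, with every call against mock kept. Mock levels under the filter limit every fold change over mock except that of Irgm1.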

Other observations

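The array numbers left a pattern in the values of the family. Among the 7 probe sets, the highest IFN gamma array and the highest IFN alpha array had the same number for 5 probe sets in the 0-30 min window, for 5 in the 0-60 min window, and for 2 each at 30-60 and 150-180 min. IFN alpha array 1 was the highest IFN alpha array for 7 of 7 probe sets at 0-30 min, and array 2 for 7 of 7 at 0-60 min. The probe sets share these arrays and are not separate evidence.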
